A study of Xenopus tropicalis with 192 samples.

Results

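The CpGs near chromosome starts were defined as the measured CpGs on Chr1 to Chr6 and Chr8 of Xenopus tropicalis, the western clawed frog, that lie at positions below 8000000 in the v10.0 genome. There were 138 such CpGs, called start CpGs here, of 6717 CpGs in the deposited table. Of these, 19 lay on Chr1, 6 on Chr2, 40 on Chr3, 20 on Chr4, 11 on Chr5 and 42 on Chr6. Chr8 gave 0 members, because its first measured CpG lay at position 13391106. CpGs less than 500 bp apart were grouped into loci, and the start CpGs fell into 29 loci. They were set beside the 5299 CpGs of the same chromosomes from position 20000000 on, called interior CpGs.

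DNA was captured with probes, then bisulfite-treated and sequenced, from the hindlimb webbing of 187 adult frogs and from 5 tadpoles used whole. The probes had been designed against regions already known to change with age, so the share of CpGs that change with age is not that of the genome. All frogs had the Nigerian background NXR_1018, carried 25 strain names, some of them of transgenic or knockout lines, and came from 34 tanks. Libraries were sequenced on 2 lanes of 96 frogs each. The 5 tadpoles were 3 Superman F9 WT animals of 89 days and 2 ZBTB14 KO animals of 177 days. The 31 adults under 1 year were 9 SUPERMAN F8 frogs of 332 days, 3 Xtr.Tg(cryga:GFP)Grngr frogs of 273 days and 19 NIGERIAN F8 frogs of 269 days. The oldest frogs were 22 Xtr.Tg(eef1a1:GFP)Krieg frogs of 3987 days (10.9 years) from 4 tanks, and 5 frogs of the same strain were 2523 days old. Replicate 10 of the 22 stood apart: it was the highest or lowest frog of its group at 36.6% of start CpGs, against 1.49% to 15.7% for each of the 21 others, and at 33.7% of interior CpGs, against 3.15% to 14.6%. Results that rest on it are given with and without it, and why it stood apart was not tested. Replicate 10 was picked from these same fractions, and leaving it out narrows its group, which by itself favours smaller p-values. Xtr.Tg(cryga:GFP)Grngr, also sampled at different ages, had 4 frogs of 3583 days beside the 3 of 273 days. In the Xtr.Tg names the element before the colon gives the promoter that drives the reporter. Strains were compared among 18 frogs of 2878 days, with 6 each of Xtr.Et(CAGGS-SB10;cryga:RFP)Mead, Xtr.Et(eef1a1:GFP)folMead and Xtr.Et(eef1a1:GFP)psvbiMead, each kept in 1 tank and called CAGGS-SB10;cryga:RFP Mead, folMead and psvbiMead below. Cohorts named for extreme values were 6 WT Superman frogs of 937 days, 5 tubb2b GFP frogs of 2059 days, 6 Xtr.Et(eef1a1:GFP)johMead frogs of 3188 days, and 5 frogs of 3301 days of the 8FMead strain, whose name lists CAGGS:GFP beside CAGGS-SB10 and cryga:RFP. A cohort is a strain at 1 age: there were 28 adult cohorts, 24 of them with 3 or more frogs. Frogs of a cohort share strain and age and mostly a tank, so p-values over frogs measure the spread between frogs and not between independent populations. Within a cohort strain, age and tank cannot be told apart, and the labels used here give no sex.

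In vertebrates most CpGs carry a methyl group on the cytosine, and the mark is copied when DNA is replicated. The methylation fraction of a CpG is the share of reads, and so roughly of DNA copies in the tissue, in which its cytosine is methylated. The ends of chromosomes are often rich in tandem repeats, short units of sequence copied head to tail. Such arrays differ in length and in letters between individuals, and a read from a repeat can be harder to place than a read from unique sequence.

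The probe sequences show how the loci near the chromosome starts differ in kind. They come from the probe table of the study, run 5′ to 3′ in the v10.0 genome, and have the measured CpGs in capitals. Probe sequences were held for Chr1 to Chr4 only. The first 4 are shown because they match themselves when shifted by the length of a repeat unit, and because their loci carried many of the differences between strains. The sequence at plekha7 (chr4:2248605-2248724) had its best match to itself at a shift of 31 bp, where 66.3% of its bases were the same. The sequence nearest to fstl1 (chr2:1820103-1820222) reached 91.3% at 40 bp, and the sequence nearest to lmo3 (chr3:422234-422353) reached 94.7% at 44 bp. The sequence within med21 (chr3:3068623-3068742) reached 64.9% at 43 bp.
plekha7: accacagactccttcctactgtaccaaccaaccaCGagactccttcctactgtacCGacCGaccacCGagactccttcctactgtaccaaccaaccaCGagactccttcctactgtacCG
fstl1: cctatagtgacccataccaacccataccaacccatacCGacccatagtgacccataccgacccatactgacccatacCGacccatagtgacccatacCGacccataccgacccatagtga
lmo3: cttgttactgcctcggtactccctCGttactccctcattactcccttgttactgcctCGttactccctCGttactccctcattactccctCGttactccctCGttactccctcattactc
med21: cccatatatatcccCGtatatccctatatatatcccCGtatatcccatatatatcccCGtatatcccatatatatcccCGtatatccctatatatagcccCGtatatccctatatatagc
The next 3 are shown because they hold CpGs with the strongest correlations with age, and none of them reached 60% at any shift. The best match was 38.2% for the sequence within pde3a (chr3:904172-904291), 36.1% for the sequence nearest to adm (chr4:7596120-7596239) and 38.8% for that within LOC116408387 (chr1:3393246-3393365).
pde3a: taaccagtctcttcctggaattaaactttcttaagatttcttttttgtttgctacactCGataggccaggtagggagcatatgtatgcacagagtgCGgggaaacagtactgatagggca
adm: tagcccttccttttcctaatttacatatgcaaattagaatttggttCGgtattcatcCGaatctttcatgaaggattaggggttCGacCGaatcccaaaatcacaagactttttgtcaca
LOC116408387: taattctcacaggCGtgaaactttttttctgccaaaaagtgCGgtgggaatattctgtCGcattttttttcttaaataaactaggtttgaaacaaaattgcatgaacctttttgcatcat

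Self-similar probes made up 10 of the 39 probes held for the chromosome starts (25.6%) and 42 of the 1820 held for the interior (2.31%), at a match of 60% or more for a shift of 10 to 60 bp. At a match of 80% or more they were 5 (12.8%) and 12 (0.659%). The probes near the starts also held more CpGs, with a median of 3 against 2 in the interior, and more G and C, with a median of 40.0% against 34.2%. Gene positions came from RefSeq annotation of the assembly UCB_Xtro_10.0, which gives gene spans here and not exons.

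A mixture filter removed CpGs at which a mixture of 3 normal distributions described the frogs better than 1 distribution (BIC lower by more than 90) and at least 1 frog had a fraction below 0.006. The paper filters such CpGs because it takes their pattern as likely germline C to T mutations, with no methylation expected for the T allele. The filter removed 4 of 138 start CpGs (2.90%), 475 of 5299 interior CpGs (8.96%) and 542 of all 6717 (8.07%). The 134 start CpGs that were kept enter every test below, and of the 4 that were removed 3 lay in plekha7 and 1, Chr4:7730395, lay 413399 bp from its nearest gene, adm. After the filter the start CpGs had 4.62 CpGs per locus, against 2.80 in the interior. Neighbouring CpGs of a locus are read from the same DNA fragments and are not independent.

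The start CpGs were methylated at slightly lower levels than the interior CpGs. The median over CpGs of the adult median fraction was 0.883 for start CpGs, 0.904 for interior CpGs and 0.904 for all CpGs. The quartiles were 0.772 and 0.929 for start CpGs, against 0.805 and 0.941 for interior CpGs. Only 11 start CpGs (8.21%) had a level of 0.95 or more, against 16.7% of interior CpGs. At the other end, 10 start CpGs (7.46%) were below 0.5, against 5.64% of interior CpGs. The same CpGs are averaged in every frog, so the frogs are not independent comparisons of the sets. In each frog the mean over the start CpGs was below the mean over the interior CpGs, in 192 of 192 frogs. These means had a median of 0.819 for start and 0.862 for interior CpGs in tadpoles, 0.814 and 0.847 in adults under 1 year, and 0.799 and 0.829 in the oldest adults. The difference within a frog lay between -0.0585 and -0.00990 in tadpoles and between -0.0567 and -0.0111 in all other age classes, so its size overlapped between stages and ages.

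**Figure D1:**
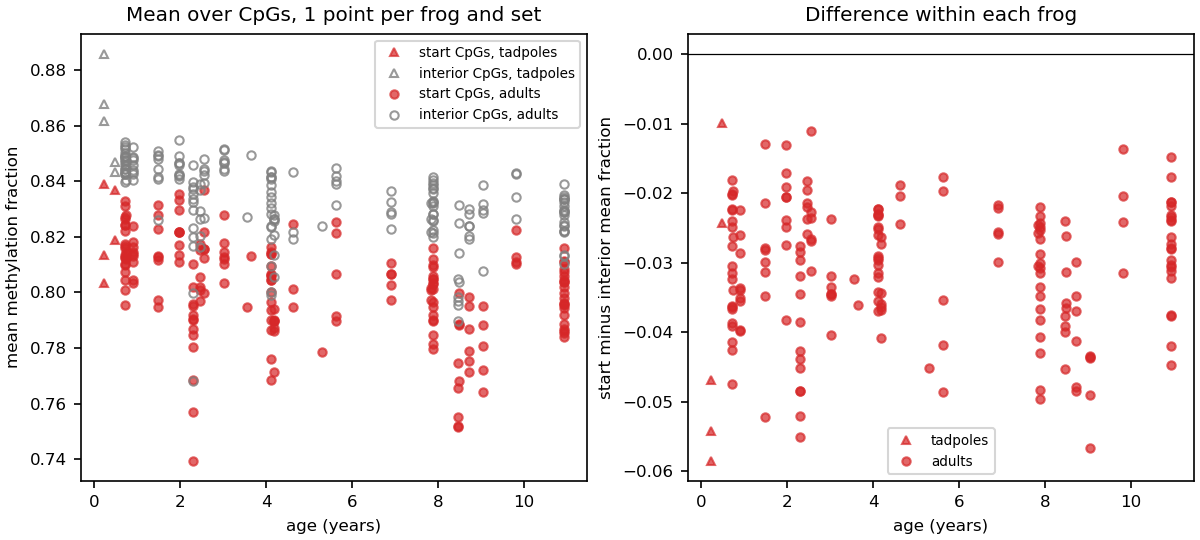
Mean methylation fraction over start CpGs (red) and interior CpGs (grey) on the left, and their difference on the right, against age in years, with 1 point per frog and set and with tadpoles as triangles. All 192 differences lie below 0, with the same CpGs averaged in every frog. The median of the start means is 0.814 in adults under 1 year and 0.799 in the oldest.

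The lower level was uneven along the chromosomes. By chromosome, the median level of start CpGs was 0.785 on Chr3 against 0.906 in its interior, 0.864 on Chr2 against 0.910, and 0.871 on Chr4 against 0.892. It was 0.902 on Chr5 against 0.904 and 0.897 on Chr6 against 0.906, and on Chr1 it was higher than the interior, at 0.907 against 0.901. By distance, the 38 CpGs within 0.1 Mb of a start had a median of 0.887, the 22 from 0.1 to 1 Mb had 0.772, the 33 from 1 to 4 Mb had 0.898 and the 41 from 4 to 8 Mb had 0.902. The lowest bin held only 3 loci, those nearest to lmo3, LOC116409441 and pde3a. With the limit moved to 12 Mb, the direction turned: the median became 0.908, or 0.00426 above the interior. That step added 156 CpGs, 135 of them in 2 dense Chr2 loci at the tRNA genes trnai-aau and trnad-guc, with a median level of 0.922. Without Chr3, a choice made after the values were seen, the median of start CpGs was 0.893 and the difference from the interior was -0.0105, against -0.0206 with it.

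The share of CpGs inside genes was similar in both sets, and outside genes the start CpGs lay closer to a gene. Of the 134 start CpGs, 43 (32.1%) lay inside an annotated gene span, against 34.1% of interior CpGs. For CpGs outside genes the nearest gene was at a median distance of 17180 bp against 39770 bp. The genes that held the most start CpGs were LOC105945811, an annotated pseudogene at the start of Chr6, with 12, plekha7 with 11 (8 after the filter), pde3a with 8 and med21 with 6. In pde3a each CpG was measured on both strands, and both positions are counted. In mammals, plekha7 encodes a protein of adherens junctions between epithelial cells, pde3a a phosphodiesterase that degrades cyclic nucleotides, and med21 a subunit of the Mediator complex of transcription.

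Levels changed steeply over short distances at several loci. The lowest level of any start CpG was at Chr3:548769, 17108 bp from LOC116409441, with an adult median of 0.00126 and a fraction below 0.006 in 188 of 192 frogs. Whether the frogs differ there from the reference sequence was not tested. The neighbouring CpG, Chr3:548763, had a median of 0.780, and the CpG at Chr3:548661 had 0.0436. At the upper end were Chr3:3068681 in med21 with 0.963, Chr6:88677 with 0.960 and Chr1:6295002 with 0.960.

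In pde3a, 4 CpG pairs were each measured at the C and at the G, where the cytosine of the opposite strand is read. Their levels alternated along 101 bp. The pair at 904230 and 904231 had adult medians of 0.794 and 0.740, the pair at 904268 and 904269 had 0.275 and 0.252, the pair at 904311 and 904312 had 0.770 and 0.801, and the pair at 904330 and 904331 had 0.151 and 0.0879. The strands of a pair moved together over the 187 adults, with Pearson's r of 0.836, 0.842, 0.856 and 0.676, given as a description because they share fragments and tissue. The strand difference kept its sign in most frogs: the C position was the higher one in 184, 152, 17 and 187 of the 187 adults.

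**Figure D2:**
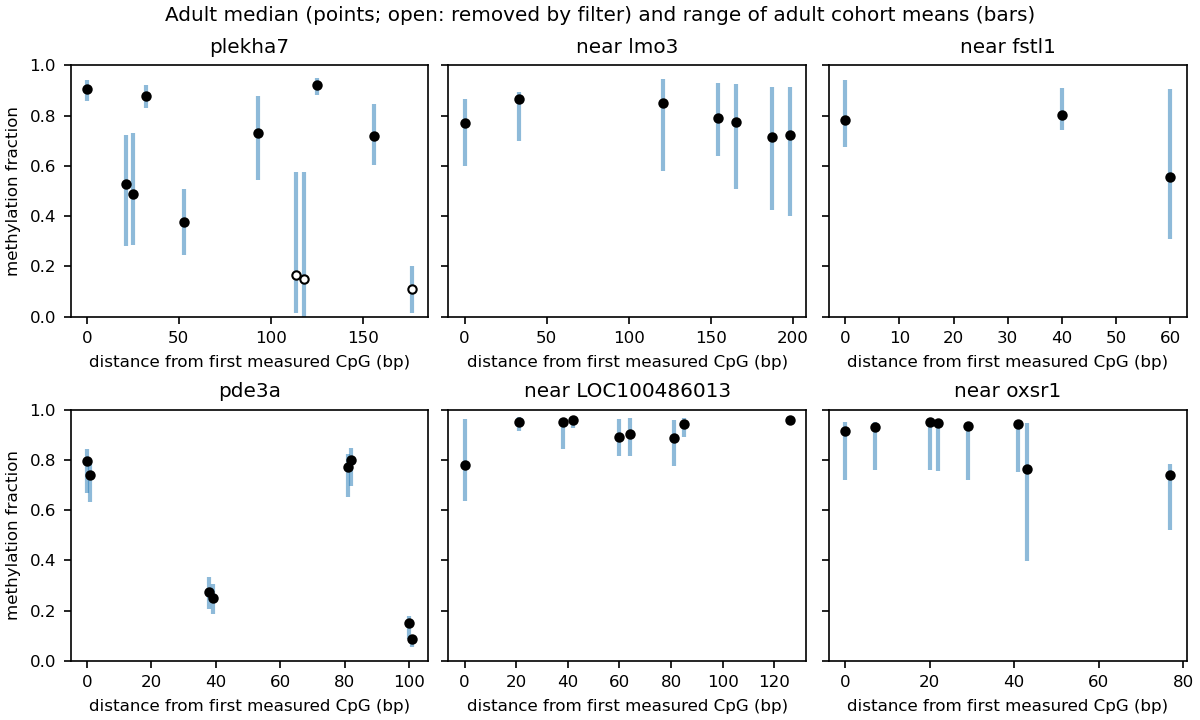
Adult median methylation fraction of each CpG (points, open where the filter removed it) and the range of means over 24 adult cohorts (bars), against distance in bp from the first measured CpG, at 6 loci near chromosome starts. At pde3a high and low CpGs alternate, with medians from 0.0879 to 0.801, while plekha7 and the loci near lmo3 and fstl1 each have a CpG whose cohort means span more than 0.3, such as 0.401 to 0.913 near lmo3.

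The correlation of methylation with age was calculated over the 187 adults, and a CpG was called at an adjusted p below 0.001 (Spearman correlation, Benjamini-Hochberg over all 6175 kept CpGs). More start CpGs fell with age than rose. Methylation was lower with age at 39 of 134 start CpGs (29.1%), against 31.9% of interior CpGs and a background of 30.9% over all CpGs. It was higher with age at 10 (7.46%), against 4.98% of interior CpGs and a background of 5.18%. The median Spearman coefficient (rs) was -0.144 for start CpGs and -0.170 for interior CpGs. The share that fell is near the background, and the 10 that rose came from 5 loci. Without replicate 10 of the oldest frogs the counts were again 39 and 10. The age ends lie on different lanes, since the 31 youngest adults were all on lane 2 and the 22 oldest all on lane 1. All 39 CpGs that fell had a negative rs on each lane alone, and 9 of the 10 that rose had a positive rs on both. These CpGs were chosen by the correlation over the same frogs of both lanes, which favours the same sign on each lane. The share that rose was below that of the interior in some settings, with 1.49% against 3.71% when lane was held constant, 2.24% against 2.51% on lane 1 alone, 0.746% against 2.65% on lane 2 alone and 3.73% against 3.92% without the 22 oldest frogs. The share that fell was 28.4% against 24.1% when lane was held constant and 14.9% against 9.06% on lane 1 alone, so it was above that of the interior there. For lane 2 alone the share that fell is not set beside the interior here. Over all adults, with lane not held, it was below the interior, at 29.1% against 31.9%, so the direction depended on the setting. Over the means of all 28 adult cohorts, where frogs of a cohort count once, none was called at an adjusted p below 0.001. That test left 30 start CpGs lower and 4 higher at an unadjusted p below 0.05, counts given without a background share and not read as calls. At an adjusted p below 0.05 over cohort means, 24 start CpGs were lower (17.9%, background 19.2%) and 1 was higher (0.746%, background 1.83%).

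**Figure D3:**
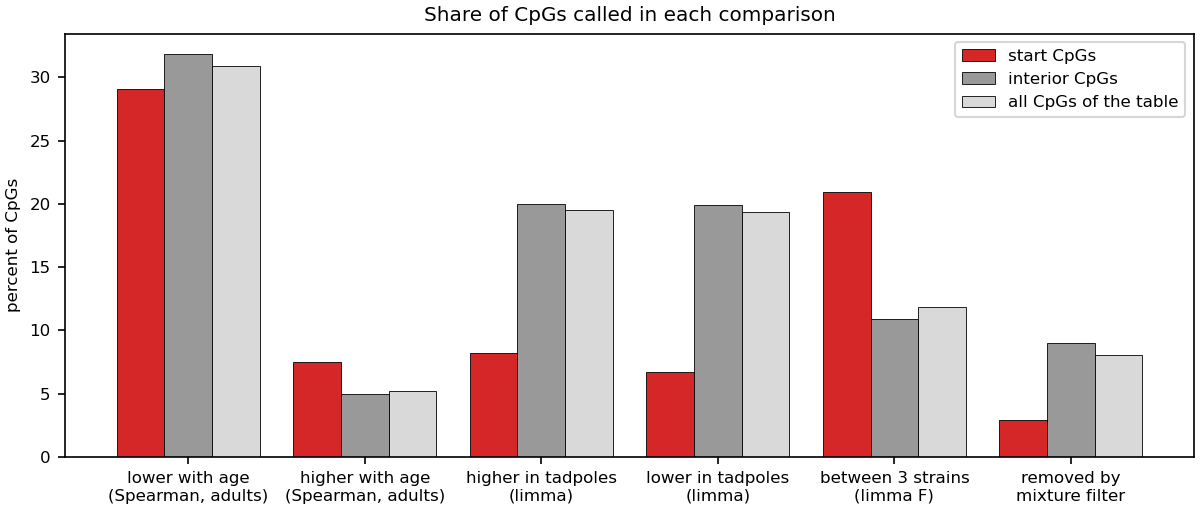
Percent of start, interior and all CpGs called in each comparison, with the removal by the mixture filter at the right. The bars of the start set are below the others for both directions between tadpoles and young adults (8.21% and 6.72%) and above them between strains (20.9%).

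The strongest falls with age lay in pde3a, in a dense locus before the pseudogene LOC105945811, and at 2 CpGs of Chr1. At Chr3:904230 in pde3a the median was 0.840 in adults under 1 year (0.794 to 0.880), 0.798 at 1 to 5 years (0.654 to 0.875), 0.760 at 5 to 10 years (0.602 to 0.857) and 0.788 in the oldest frogs (0.665 to 0.822). Older frogs were lower, with overlap of all classes, and the oldest frogs were not the lowest (rs = -0.622, adjusted p = 1.395e-19). Chr3:904312, on the opposite strand of a neighbouring CpG, gave rs = -0.605. In the pde3a locus 7 of 8 measured positions fell with age, including those with levels of 0.151 and 0.0879. Each CpG there was measured on both strands, so the counts and shares of falling CpGs hold the same CpGs more than once.

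At Chr6:88274, 2794 bp from LOC105945811, the median was 0.785 in adults under 1 year, 0.735 at 1 to 5 years, 0.678 at 5 to 10 years and 0.637 in the oldest frogs (rs = -0.615). The class medians declined in order through all 4 classes. Fractions ranged from 0.652 to 0.845 in the youngest and from 0.531 to 0.802 in the oldest, where the highest was 0.721 without replicate 10. Within Xtr.Tg(cryga:GFP)Grngr the median was 0.669 at 273 days and 0.654 at 3583 days. Within Xtr.Tg(eef1a1:GFP)Krieg it was 0.683 at 2523 days and 0.637 at 3987 days. The locus around Chr6:88274 held 22 CpGs, of which 8 fell with age and 1, Chr6:88635, rose.

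At Chr1:3393305 in LOC116408387 the oldest frogs had a median of 0.527 (0.466 to 0.750), against 0.871 in adults under 1 year (0.626 to 0.922). This was the largest fall between the age ends among start CpGs, at -0.284 in mean fraction (rs = -0.578, adjusted p = 1.72e-16). The groups overlapped only through replicate 10, and without it the oldest frogs ran from 0.466 to 0.565 and all lay below every adult under 1 year (mean difference -0.294, rs = -0.580). The spread within the classes between these ages was wide, with 0.492 to 0.901 at 5 to 10 years. All the oldest frogs were of the strain Xtr.Tg(eef1a1:GFP)Krieg, whose frogs of 2523 days had a median of 0.532 (0.492 to 0.698). In Xtr.Tg(cryga:GFP)Grngr the median was 0.887 at 273 days and 0.849 at 3583 days. Strain and age differ together between the 2 age ends. The 2 other CpGs measured in the same probe, Chr1:3393260 and Chr1:3393288, had medians of 0.907 and 0.904 and smaller coefficients, -0.0780 and -0.391. At Chr1:5462113, 58046 bp from the small nuclear RNA gene LOC116408516, the oldest frogs had a median of 0.648 (0.292 to 0.864), against 0.852 in adults under 1 year (0.623 to 0.891), with rs = -0.596.

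The 10 CpGs that rose with age were 3 near nrip3, 2 near adm, 2 near fstl1 and 3 in the 2 loci at LOC105945811. At Chr4:7596205, 279209 bp from adm, which encodes the vasodilator peptide adrenomedullin in mammals, the oldest frogs had a median of 0.656 (0.526 to 0.944), against 0.524 in adults under 1 year (0.414 to 0.705). The medians of the classes between them were lower than that of the oldest, with 0.526 at 1 to 5 years and 0.623 at 5 to 10 years, and all classes overlapped (rs = 0.474, adjusted p = 9.905e-11). The next CpG, Chr4:7596209, gave rs = 0.428. It was the only start CpG called higher over cohort means. On lane 2 alone, which holds no frog over 7.88 years, rs at Chr4:7596205 was 0.0412. The 5 frogs of 2523 days from the strain of the oldest frogs had 0.6739, 0.5344, 0.6413, 0.6568 and 0.7293 there, within the range of the oldest. Frogs of Xtr.Tg(cryga:GFP)Grngr had 0.7054, 0.5515 and 0.6667 at 273 days, against 0.5187, 0.6916, 0.6335 and 0.5206 at 3583 days.

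At Chr3:2174652, 2311 bp from nrip3, the oldest frogs had a median of 0.665 (0.509 to 0.754), against 0.486 in adults under 1 year (0.319 to 0.587). The 5 frogs of 2523 days from the strain of the oldest frogs had 0.614, 0.527, 0.660, 0.751 and 0.735, within the range of the oldest. Frogs of Xtr.Tg(cryga:GFP)Grngr had 0.341, 0.398 and 0.319 at 273 days, against 0.548, 0.538, 0.380 and 0.542 at 3583 days. The 2 neighbouring CpGs rose as well, so all 3 CpGs of the locus were called. Without the 22 oldest frogs rs at Chr3:2174652 was 0.236, which was no longer called, while at the named CpGs that fell rs without them lay between -0.694 and -0.416 and stayed called. At Chr2:1820201, 4940 bp from fstl1, which encodes a secreted follistatin-like glycoprotein in mammals, the median was 0.484 in adults under 1 year, 0.488 at 1 to 5 years, 0.643 at 5 to 10 years and 0.585 in the oldest (rs = 0.402). Chr6:88635 gave rs = 0.410. There the median was 0.939 at 273 days and 0.935 at 3583 days in Xtr.Tg(cryga:GFP)Grngr. In Xtr.Tg(eef1a1:GFP)Krieg it was 0.920 at 2523 days and 0.903 at 3987 days. The other young adults had medians of 0.830 (NIGERIAN F8, 269 days) and 0.834 (SUPERMAN F8, 332 days).

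**Figure D4:**
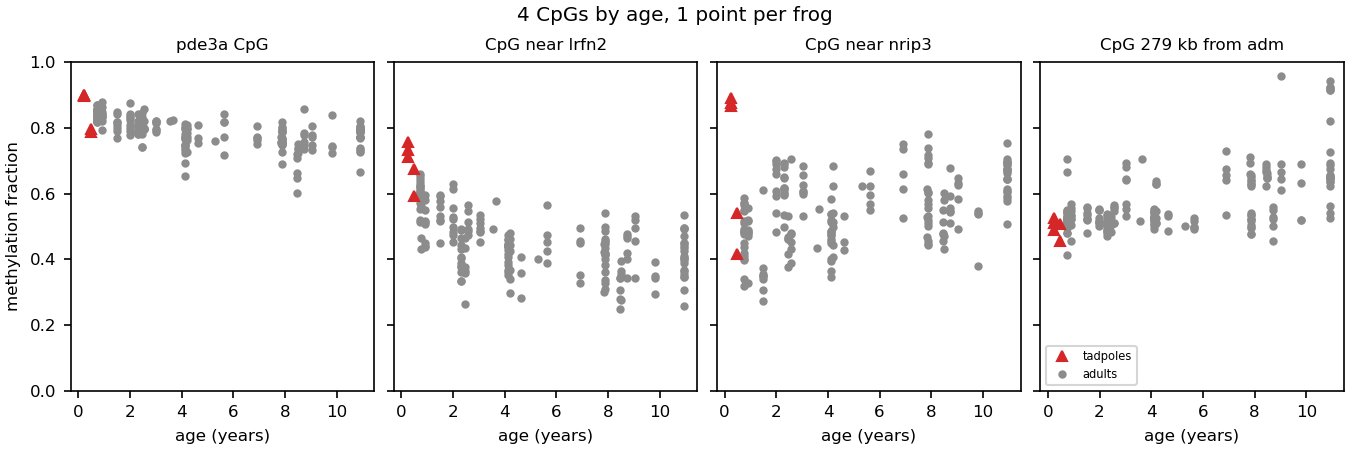
Methylation fraction against age in years at 4 start CpGs, with 1 point per frog and tadpoles as triangles. The pde3a and lrfn2 CpGs are lower in older adults, the CpGs near nrip3 and adm are higher in the oldest, and at the nrip3 CpG 3 tadpoles lie above all adults at 0.868 to 0.891.

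Between the ends of the age range, 13 start CpGs (9.70%) were lower in the oldest frogs than in adults under 1 year by more than 0.1 in mean fraction, against 6.86% of interior CpGs. There were 6 (4.48%) that were higher by more than 0.1, against 2.61%. These are descriptions, since strain, lane and age differ together between the 2 ends. The share that fell also differed by level: among CpGs with a level below 0.8, 45.5% of start and 48.6% of interior CpGs fell with age, and among those from 0.8 to 0.95 the shares were 22.8% and 30.3%.

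Frogs of 1 strain at different ages were compared in 2 strains, to ask whether a change with age appears within a strain. In Xtr.Tg(eef1a1:GFP)Krieg, 3987 against 2523 days and both on lane 1, 6 start CpGs were lower (4.48%, background 2.07%) and 2 were higher (1.49%, background 2.23%; limma, adjusted p below 0.05). Replicate 10 of 3987 days was then left out, a choice made after the values were seen. Without it these 8 were called again, and in all 10 start CpGs were lower (7.46%, background 2.95%) and 4 were higher (2.99%, background 2.85%). In Xtr.Tg(cryga:GFP)Grngr, 3583 against 273 days and on different lanes, 3 were higher (2.24%, background 0.713%) and 1 was lower (0.746%, background 0.874%). All frogs of 273 days have titles that name a tadpole and a tissue label of hindlimb webbing. They were taken as adults, and every result on this strain's change rests on them.

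In Krieg frogs, 3 of the 6 lower CpGs, Chr5:6502773, Chr5:6502777 and Chr5:6502794, lay side by side, the last 56403 bp from LOC100486013. The strongest of them, Chr5:6502794, had a median of 0.772 at 3987 days (0.722 to 0.895), against 0.876 at 2523 days (0.853 to 0.886). The ranges overlapped through replicate 10 (mean difference -0.0956, limma adjusted p = 0.000432). Without it the frogs of 3987 days ran from 0.722 to 0.839, all below the younger ones (mean difference -0.101, limma adjusted p = 8.64e-07). Replicate 10 was left out after these values were seen. At the neighbouring Chr5:6502713 the change was called without replicate 10 and not with it. That frog had 0.915 there, while the 21 others ran from 0.581 to 0.691, against 0.722 to 0.822 at 2523 days (limma adjusted p = 5.48e-07, and 0.101 with it). At Chr1:1127880, 9598 bp from LOC100038041, the median was 0.655 at 3987 days (0.474 to 0.773), against 0.821 at 2523 days (0.736 to 0.859), with a mean difference of -0.150. In the other direction Chr6:7281271, 26501 bp from oxsr1, a kinase of the osmotic and oxidative stress response in mammals, had a median of 0.755 at 3987 days (0.686 to 0.864), against 0.664 at 2523 days (0.592 to 0.717).

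In cryga:GFP frogs all 3 higher CpGs were the 3 measured CpGs of the repeat near fstl1. At Chr2:1820141 the frogs of 3583 days had 0.940, 0.928, 0.940 and 0.959, against 0.736, 0.723 and 0.712 at 273 days. At Chr2:1820201 they had 0.921, 0.886, 0.912 and 0.899, against 0.646, 0.644 and 0.650 at 273 days. The groups did not overlap at either CpG (limma adjusted p = 0.0007 and 0.000633). The 1 lower CpG was Chr6:7281237, 26467 bp from oxsr1, with a median of 0.403 at 3583 days (0.344 to 0.444), against 0.650 at 273 days (0.635 to 0.664). In Krieg frogs the same repeat held no call with all frogs, and Chr2:1820201 had a median of 0.585 at 3987 days (0.501 to 0.849), against 0.672 at 2523 days (0.587 to 0.690; limma adjusted p = 0.588). Without replicate 10, which had 0.849, the frogs of 3987 days ran from 0.501 to 0.644, and this CpG and Chr2:1820141 were called lower at 3987 days (limma adjusted p = 0.0375 and 0.0449). The difference between the change in cryga:GFP and the change in Krieg was tested in 1 limma fit of all 4 cohorts. It passed an adjusted p below 0.05 at 6 start CpGs (4.48%, background 3.79%), among them the 3 near fstl1. Without replicate 10 it passed at 14 (10.4%, background 5.55%), with all 6 among them. The changes run from 273 to 3583 days in cryga:GFP and from 2523 to 3987 days in Krieg. Strain, age span and lane cannot be told apart in this difference.

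The tadpoles were set against the 31 youngest adults, and both were sequenced on lane 2. Stage and tissue cannot be told apart, since only tadpoles were used whole. A smaller share of start CpGs than of interior CpGs was called in both directions. In tadpoles 11 start CpGs were higher (8.21%), against 20.0% of interior CpGs and a background of 19.5%, and 9 were lower (6.72%), against 19.9% of interior CpGs and a background of 19.4% (limma, adjusted p below 0.05). The median increase was 0.0968 in mean fraction (0.0175 to 0.240), and the median decrease was -0.0262 (-0.0380 to -0.0203). At none of the 20 CpGs were all tadpoles outside the range of the adults. Both tadpole cohorts lay beyond the adult mean at 10 of the 11 higher and 8 of the 9 lower CpGs. These counts are descriptions, since the CpGs were called from the same tadpoles, which favours this outcome.

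The largest increase was at Chr3:2174652 near nrip3. The Superman F9 WT tadpoles had 0.891, 0.877 and 0.868 and the ZBTB14 KO tadpoles 0.541 and 0.417, against a median of 0.486 in adults under 1 year (0.319 to 0.587). The 3 Superman tadpoles were above every young adult and the 2 ZBTB14 KO tadpoles lay within the adult range (mean difference 0.240, limma adjusted p = 3.486e-05). The other 2 CpGs of this locus were higher as well, by 0.107 and 0.103. At Chr3:4923984 in bicd1, which encodes a dynein adaptor in mammals, the Superman tadpoles had 0.812, 0.818 and 0.871 and the ZBTB14 KO tadpoles 0.642 and 0.659, against a median of 0.616 in young adults (0.422 to 0.724). At Chr5:4462804, 64547 bp from lrfn2, a synaptic adhesion gene in mammals, the Superman tadpoles had 0.712, 0.756 and 0.733 and the ZBTB14 KO tadpoles 0.594 and 0.674, against a median of 0.584 in young adults (0.432 to 0.659). At both CpGs the 3 Superman tadpoles were above all young adults, as was 1 ZBTB14 KO tadpole at Chr5:4462804. Both also fell with age among adults, with rs of -0.514 and -0.570, while the nrip3 CpG rose with age among adults.

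The decreases in tadpoles were small. At Chr3:3999, 25686 bp from pdrg1, the Superman tadpoles had 0.810, 0.834 and 0.845 and the ZBTB14 KO tadpoles 0.726 and 0.804, against a median of 0.843 in young adults (0.798 to 0.877). Here 1 ZBTB14 KO tadpole was below every young adult and the others were inside the range of young adults. At Chr6:88617, 2451 bp from LOC105945811, tadpoles ranged from 0.881 to 0.940 and young adults from 0.920 to 0.961. At Chr2:7231118, 22447 bp from mael, a gene of the germline piRNA pathway in mammals, the Superman tadpoles had 0.915, 0.898 and 0.909 and the ZBTB14 KO tadpoles 0.975 and 0.956, against a median of 0.958 in young adults (0.933 to 0.983). There the Superman tadpoles were below every young adult and the ZBTB14 KO tadpoles were inside the adult range.

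These stage calls depended on the tadpoles. With cohort as a random effect, 6 start CpGs were higher (4.48%) and 2 were lower (1.49%), against 12.9% and 6.53% of interior CpGs. The count of lower start CpGs was 3 without Superman F9 WT replicate 1 or without replicate 2, and 18 without ZBTB14 KO replicate 1, which is 2.24%, 2.24% and 13.4% of start CpGs, against 11.7%, 10.1% and 24.3% of interior CpGs. Higher start CpGs numbered 6 without Superman F9 WT replicate 3, or 4.48%, against 14.9% of interior CpGs. Of the 3 adult frogs of 273 days, the titles name a tadpole while the tissue label names hindlimb webbing, and without them the shares were the same, 8.21% and 6.72%.

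Strains of the same age differed at a larger share of start CpGs. Among the 18 frogs of 2878 days, 28 start CpGs (20.9%) in 12 loci differed between the 3 strains, against 10.9% of interior CpGs and a background of 11.8% (limma F test, adjusted p below 0.05). Strain went with lane: the 6 CAGGS-SB10;cryga:RFP Mead frogs were on lane 1, the 6 folMead frogs on lane 2, and psvbiMead had 1 frog on lane 1 and 5 on lane 2. With lane as a covariate, 9 start CpGs (6.72%) and 4.93% of interior CpGs were called. Between folMead and psvbiMead on lane 2 alone, 8 start CpGs (5.97%) and 3.92% of interior CpGs were called. The share was above that of the interior in each of these fits, but with lane held the gap was small. CAGGS-SB10;cryga:RFP Mead was the lowest strain at 17 of the 28 CpGs, psvbiMead the highest at 13 and folMead the highest at 10. The 28 lie in 12 loci, and this order was not compared with that at interior CpGs.

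The smallest p-value was at Chr5:6502713, 56484 bp from LOC100486013. The lowest, median and highest fractions were 0.645, 0.668 and 0.779 in CAGGS-SB10;cryga:RFP Mead, 0.942, 0.965 and 0.969 in folMead, and 0.734, 0.777 and 0.828 in psvbiMead. The folMead frogs stood apart from all frogs of the other strains, which overlapped each other (adjusted p = 1.121e-09). In all adults this CpG ranged from 0.581 to 0.990. The next-ranked CpG of this locus, Chr5:6502777, had means of 0.846, 0.965 and 0.891 in CAGGS-SB10;cryga:RFP Mead, folMead and psvbiMead (adjusted p = 2.279e-08), and 2 further CpGs of the locus were called.

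At Chr2:1820141, in the repeat near fstl1, psvbiMead was apart: its fractions were 0.868 to 0.926 with a median of 0.916, against 0.712 to 0.755 in CAGGS-SB10;cryga:RFP Mead and 0.699 to 0.744 in folMead. The last 2 strains overlapped (adjusted p = 7.564e-09). Since psvbiMead had frogs on both lanes and folMead shared lane 2 with it, the gap of psvbiMead at this CpG was present within a lane.

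The locus near lmo3, a LIM-domain cofactor of transcription in mammals, had 7 CpGs, of which 6 differed between strains. The largest range of strain means among the start CpGs was at its Chr3:422336, with means of 0.606 in CAGGS-SB10;cryga:RFP Mead, 0.819 in folMead and 0.912 in psvbiMead (adjusted p = 0.00631). The CAGGS-SB10;cryga:RFP Mead frogs were split, from 0.435 to 0.882 with a median of 0.504, while psvbiMead ran from 0.888 to 0.928. The range within that strain was wider than the range of the strain means, which was 0.307.

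**Figure D5:**
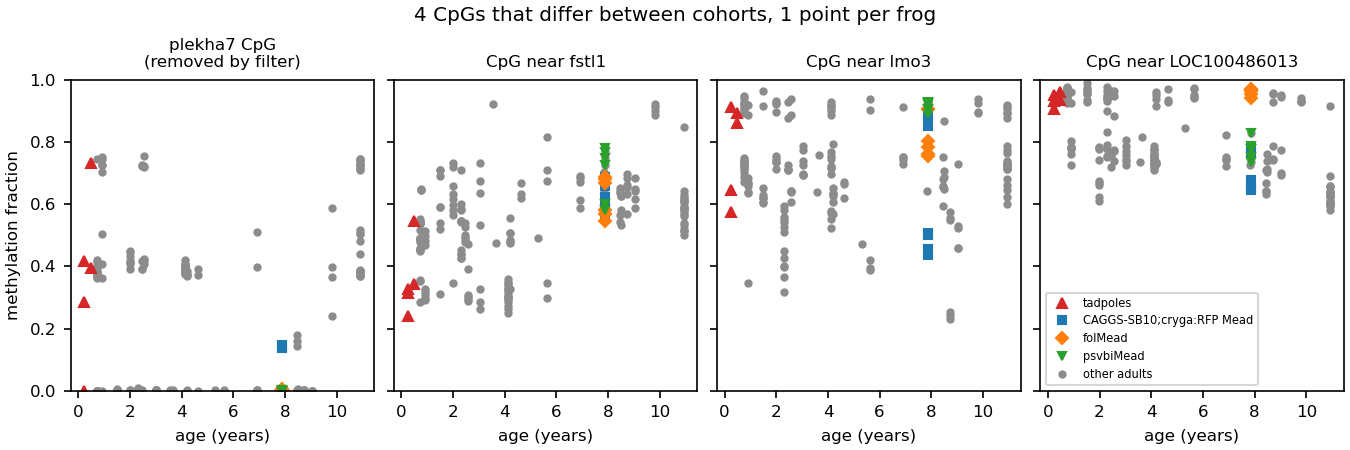
Methylation fraction against age in years at 4 start CpGs, with 1 point per frog, tadpoles as triangles and the 3 strains of 2878 days in colour. At the plekha7 CpG, which the mixture filter removed, 90 adults lie below 0.05 and 20 at 0.6 or above. At the CpG near LOC100486013 the folMead frogs lie at 0.942 to 0.969, above the other 2 strains.

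Over all 24 cohorts the start CpGs were also more spread. The SD between adult cohort means had a median of 0.0291 for start CpGs and 0.0176 for interior CpGs, and the SD within cohorts had 0.0297 and 0.0241. The SD between cohorts was above 0.05 at 38 start CpGs (28.4%), against 18.7% of interior CpGs. Among CpGs with a level from 0.8 to 0.95 the medians were 0.0217 and 0.0155, so the spread was also larger within this class of levels. With the limit at 12 Mb, the 135 CpGs of the dense Chr2 loci, with a median SD of 0.0106, took the median for start CpGs to 0.0142.

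The start loci with repeat probes had the wider spread. In the 4 repeat loci (plekha7, fstl1, lmo3 and med21), 12 of 24 kept CpGs (50.0%) differed between strains and the median SD between cohorts was 0.0704. In the remaining 25 start loci, 16 of 110 (14.5%) differed, and the median SD was 0.0279, against 0.0176 in the interior. No probe sequence was held for 10 of these 25 loci, which hold 64 CpGs and could not be classed. In the 15 loci with other probes 6 of 46 CpGs (13.0%) differed and the median SD was 0.0221, against 9.95% and 0.0190 in interior loci with other probes. In interior loci with repeat probes, 11 of 216 CpGs (5.09%) differed between strains, with a median SD of 0.0157. For stage, 0 of the 24 repeat-locus CpGs were called between tadpoles and young adults, against 20 of the other 110. In the interior repeat loci 8 of 216 CpGs (3.70%) were higher and 65 (30.1%) were lower in tadpoles. The repeat loci were grouped after values had been seen, and the part of read placement in their spread was not tested.

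The most extreme spread was in the plekha7 repeat. At Chr4:2248665, which the filter removed, 90 of the 187 adults had a fraction below 0.05, 77 lay from 0.05 to 0.6 and 20 had 0.6 or more. The mean was below 0.1 in 12 of 24 cohorts. The lowest cohort mean was 0.000205, in the 5 8FMead frogs of 3301 days, and the highest was WT Superman of 937 days at 0.574. The Superman F9 WT tadpoles ran from 0 to 0.417 and the ZBTB14 KO tadpoles had 0.395 and 0.733, so tadpoles were spread over a similar range. In Krieg frogs the median was 0.505 at 3987 days (0.368 to 0.745), against 0.004 at 2523 days (0.00122 to 0.511), and this CpG had rs = 0.0425 with age over all adults. Whether sequence variants at this CpG carry part of its spread was not tested.

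Several plekha7 CpGs varied together. Over adults, Chr4:2248665 followed its neighbour Chr4:2248661 with Pearson's r of 0.999. Chr4:2248568 and Chr4:2248572, which passed the filter, lie 93 bp or 3 units of 31 bp before Chr4:2248661 and Chr4:2248665, and followed them with r of 0.869 and 0.905. Chr4:2248579, between these pairs, ran the other way, with r of -0.701 to Chr4:2248665. Adults ranged from 0.0963 to 0.871 at Chr4:2248568 and from 0.216 to 0.887 at Chr4:2248572, and of the kept start CpGs only Chr1:4705287 had a larger SD between cohorts than their 0.148 and 0.140. Other CpGs of the same locus were nearly constant, such as Chr4:2248672 with an adult median of 0.921 and cohort means from 0.880 to 0.948. These correlations are descriptions over frogs that share strains.

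Of the 134 kept start CpGs, the most variable between cohorts was Chr1:4705287, 11180 bp from LOC116408260, the only CpG of its locus. Its SD between cohorts was 0.170, and adults ranged from 0.0840 to 0.953. The oldest frogs had a median of 0.405 (0.0959 to 0.706), against 0.670 in adults under 1 year (0.281 to 0.940), but its correlation with age was not called (rs = -0.205). The cohort means ran from 0.261 in Xtr.Et(eef1a1:GFP)johMead of 3188 days to 0.901 in tubb2b GFP of 2059 days. Tadpoles ranged from 0.280 to 0.942.

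The 8 CpGs at 77 bp of Chr6 near oxsr1 were variable between cohorts in a different way. Their median SD between cohorts was 0.0656, yet 0 of 8 differed between the 3 strains of 2878 days, and 2 fell with age. At 5 of the 8, from Chr6:7281201 to Chr6:7281235, the lowest cohort was 8FMead of 3301 days, with means from 0.720 to 0.761. At Chr6:7281223 the frogs of that cohort ran from 0.543 to 0.906, while the highest cohort, tubb2b GFP of 2059 days, ran from 0.938 to 0.966. The groups did not overlap, but the difference was chosen after the values were seen and was not tested.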

How the data were processed

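The authors trimmed reads with fastp, aligned them with BiSulfite Bolt (v10.0 genome) and, per the labels, used SAMtools 1.11. They deposited methylation fractions (methylated reads over all reads) of CpGs covered at least 100 times in every frog. Read counts per CpG were not used here, nor was the mean coverage per frog that the study lists, so the depth behind each single fraction is unknown and no counting interval is given. The deposited sample columns are named by numbers matched to the labels, and 0 columns were left unmapped.

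The filter, CpG loci (gaps under 500 bp), Spearman correlations with age (adults, adjusted p below 0.001) and cohort means were computed with Python 3.11.15, scikit-learn 1.9.0 and scipy 1.17.1. Stage, strain and within-strain age were tested with limma 3.58.1 in R 4.3.3 on log2(M/(1-M)), with an offset of 0.001 added to M and to 1-M, at an adjusted p below 0.05. Benjamini-Hochberg adjustment ran over all 6175 CpGs, and the scripts were tested on simulated data. Differences are printed on the fraction scale.

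Named CpGs were the 5 most positive and 5 most negative age correlations, the 3 largest increases and 3 largest decreases in tadpoles, the 3 smallest strain p-values, the 3 lowest and 3 highest levels, the 2 removed CpGs with most frogs below 0.006, and genes holding 5 or more CpGs. Other CpGs were named after their values were seen. The members and lists were chosen with earlier results of these data known. Tank and lane, used only as groupings, came from the sample table of the study.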

Additional observations from a re-analysis of the deposited data

Results flagged for a closer look

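In the group of Xtr.Tg(otx2:GFP)Kellr frogs of 1532 days, replicate 1 had a mean of 0.7713 over the start CpGs, while the other frogs of the group lay between 0.7861 and 0.7941. It was 1 of 34 group and measure combinations that stood apart by Dixon's criterion, where chance gives about 1 in 20.

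The change in cryga:GFP frogs (273 to 3583 days) differed from that in Krieg frogs (2523 to 3987 days) at 6 start CpGs (4.48%, against a background of 3.79% over all CpGs). What was tested is the difference itself (change in cryga:GFP minus change in Krieg, limma on the log2 logit scale). It was 3.016 at Chr2:1820141, 2.733 at Chr2:1820201 and 1.93 at Chr2:1820181, the 3 CpGs of the repeat near fstl1, with adjusted p of 4.30e-10, 1.40e-05 and 0.00506. It was 1.761 at Chr3:3068702 in med21 (adjusted p = 0.0150) and 1.272 at Chr4:2248579 in plekha7 (adjusted p = 0.00273). At Chr3:1248518, 11912 bp from iapp, the difference was -1.208 (adjusted p = 0.00438). The cryga:GFP ages lie on different lanes and the Krieg ages on 1 lane, and the age spans differ. Strain, age span and lane cannot be told apart in this difference. Without replicate 10 of the Krieg frogs of 3987 days the difference was called at 14 start CpGs (10.4%, background 5.55%), among them these 6.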

How the results depend on the processing

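With the start limit at 4 Mb the median level of start CpGs was 0.8613 and the difference from the interior was -0.04273. With the limit at 12 Mb the level was 0.9083 and the difference turned to 0.004263, which the 156 added CpGs produce. The shares called that follow are of start CpGs alone, so no difference from the interior is read from them. At 12 Mb the share rising with age was 4.138%, lower in tadpoles 14.83%, higher and lower in older cryga:GFP frogs 1.034% and 0.3448%, higher and lower in older Krieg frogs 0.6897% and 2.759%, and the median SD between cohorts was 0.01423. At 4 Mb 0% were lower in older cryga:GFP frogs. With 1 CpG per locus the level was 0.8509, 3.448% rose with age, 10.34% were lower in tadpoles, 3.448% were higher and 0% lower in older cryga:GFP frogs, and 0% were higher in older Krieg frogs.

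The share rising with age was 3.731% without the 22 oldest frogs, 2.239% on lane 1, 0.7463% on lane 2 and 1.493% with lane held constant. The share falling was 14.93% on lane 1, 16.42% on lane 2 and 47.01% at an adjusted p below 0.05. Shares in this section are of start CpGs alone and are not set here beside the interior under the same setting. Over cohort means both shares were 0%, and at an adjusted p below 0.05, added after the data were seen, 17.91% fell and 0.7463% rose. With cohort as a random effect 4.478% were higher and 1.493% lower in tadpoles. Leaving out 1 tadpole gave 4.478% to 8.955% higher and 2.239% to 13.43% lower. With lane as a covariate 6.716% differed between strains, and 5.97% between folMead and psvbiMead on lane 2. In cryga:GFP frogs the untransformed fraction gave 1.493% lower, and leaving out 1 frog gave 1.493% to 3.731% higher and 0% to 0.7463% lower, with 0% without replicate 3 of 273 days and 3.731% without replicate 1 of 273 days. In Krieg frogs 3.623% were higher without the mixture filter and 0.7463% with tank as a random effect, and without replicate 10 of 3987 days, added after the data were seen, 2.985% were higher and 7.463% lower. The median SD between cohorts was 0.02671 without Chr3 and 0.03128 without the 34 Chr6 CpGs within 0.1 Mb of the start, both chosen after seeing the data. The cause of these changes was not tested. Some of the settings leave fewer frogs or CpGs.

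Of the single CpGs named by rule, 110 values kept their side of the threshold and, where the test has one, their direction. Another 31 kept their direction and lost the call, 24 of these in the age correlation. Among the 110 are 15 values of the strain F test, which has no direction. No paired analysis was possible because replicate numbers were given in accession order and name single frogs. Unknown depth limits the comparisons of fractions, and 1 tank per strain limits that between strains.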
